A study of Bos taurus with 6 samples.

Results

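The genes described here code for enzymes and motor proteins that write, remove or read marks on histones and DNA or that move nucleosomes. They were chosen by name: a gene belonged when its symbol in the platform annotation began with KDM, JMJD, SETD, HDAC, SIRT, SMARC, DNMT, KAT, MYST, EHMT, SUV, PRMT, CHD or BRD, with a digit required after the prefix for KDM, HDAC, SIRT, KAT, PRMT, CHD and BRD. This gave 143 probes for 92 genes, of 21790 probes with a symbol for 15229 genes, and 82 of the 92 genes were bright enough to be compared.

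Messenger RNA was measured on 2-colour oligonucleotide arrays in oocytes of 3 Holstein cows that the labels place at their second parity and whose age they do not give. Every cow received follicle-stimulating hormone (FSH) every 12 h over 3 days, followed by 68 h of coasting, a period without FSH. The control oocytes come from a cycle with coasting alone, and the treated oocytes come from another cycle of the same cow, at least a month apart, in which a gonadotropin-releasing hormone (GnRH) antagonist, labelled cetrotide, covered the whole coasting period. Cumulus cells were removed mechanically, the RNA was a pool of oocytes and was amplified before labelling, and each cow's pair of RNAs was hybridised on a pair of arrays with the dyes exchanged, so that 6 arrays stand for 3 replicates.

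Histone methyltransferases and acetyltransferases write marks that open or close chromatin, demethylases, deacetylases and sirtuins remove them, and bromodomain proteins bind acetylated histones. Remodellers of the SMARC and CHD families use ATP to slide or evict nucleosomes, and DNA methyltransferases set the methylation that carries maternal imprints. A growing oocyte gains DNA and histone methylation, falls silent in transcription near the end of growth, and stores messenger RNA of many of these genes for the early embryo.

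Oocyte identity was checked first. All 14 oocyte marker genes examined, among them GDF9, ZP2 and DAZL, were above the negative control spots in all 12 readings, that is, in both channels of 6 arrays. Of 13 granulosa and cumulus markers tested, from 15 on the array, 7 were above them in every reading. So were 5 of 7 theca and stroma markers and 4 of 7 blood and endothelium markers tested, each from 10 on the array. Over all genes tested this share was 70.4%. The median log2 ratio of antagonist over control was 0.19 over the oocyte markers, 0.01 over the granulosa markers, 0.07 over the theca markers and 0.01 over the blood markers. In cow 3 alone the granulosa genes INHBA and INHA and the mesenchymal gene VIM had ratios of 1.48, 1.40 and 1.52. Most other markers did not share this, the cow 3 medians being 0.04 over the granulosa markers and 0.15 over the theca markers. The part of such RNA in the ratios below was not tested, and in pooled RNA fewer cells of a type and less RNA per cell cannot be told apart.

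Most mean ratios of the chromatin genes lay close to 0. None of the 82 genes passed limma's test at an adjusted p under 0.05, and neither did any of the 12314 genes tested in all, a background of 0%. The mean ratio of 57 of the 82 genes lay within 0.2 of 0 on the log2 scale. The SD of the mean ratio over genes was 0.28, as it was over all genes tested, so this spread was not particular to them. The median over all 82 was 0.03, against 0.00 over all genes tested. In cows 1, 2 and 3 the chromatin genes' medians were -0.02, 0.06 and 0.05. Of the 82 genes 54 had a mean ratio above 0, or 65.9%, against 52% of all genes. Ratios here are log2 antagonist over control with loess normalisation within each array, so a change shared by most transcripts would be centred away.

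At an unadjusted p under 0.05 the picture was 10 chromatin genes higher and 5 lower with the antagonist, 18.3% of the 82. The background was 15.1% of all genes in either direction, 8.57% higher and 6.57% lower, so the share of chromatin genes was near it. With at least a 1.5-fold difference as well, 5 were higher and 1 was lower, where 2.76% and 0.601% of all genes were. Passing correction varied with the error model and the spot statistic, among other choices: fitted as 6 single arrays with a replicate block by cow, SUV39H1, BRD9, JMJD7 and PRMT6 passed (limma, adjusted p = 0.0202, 0.00634, 0.0290 and 0.0395), and with spot medians in place of spot means 3 of these 4 did, BRD9 being the exception. Since no gene passed correction with spot means and both dye orientations averaged per cow, the values that follow describe these 3 cows and single no gene out as changed. The 5 higher ones were the histone methyltransferase SUV39H1, the SMARC family member SMARCAL1, the bromodomain protein BRD9, the JmjC protein JMJD7 and the arginine methyltransferase PRMT6. The lower one was the JmjC protein JMJD1C.

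**Figure D1:**
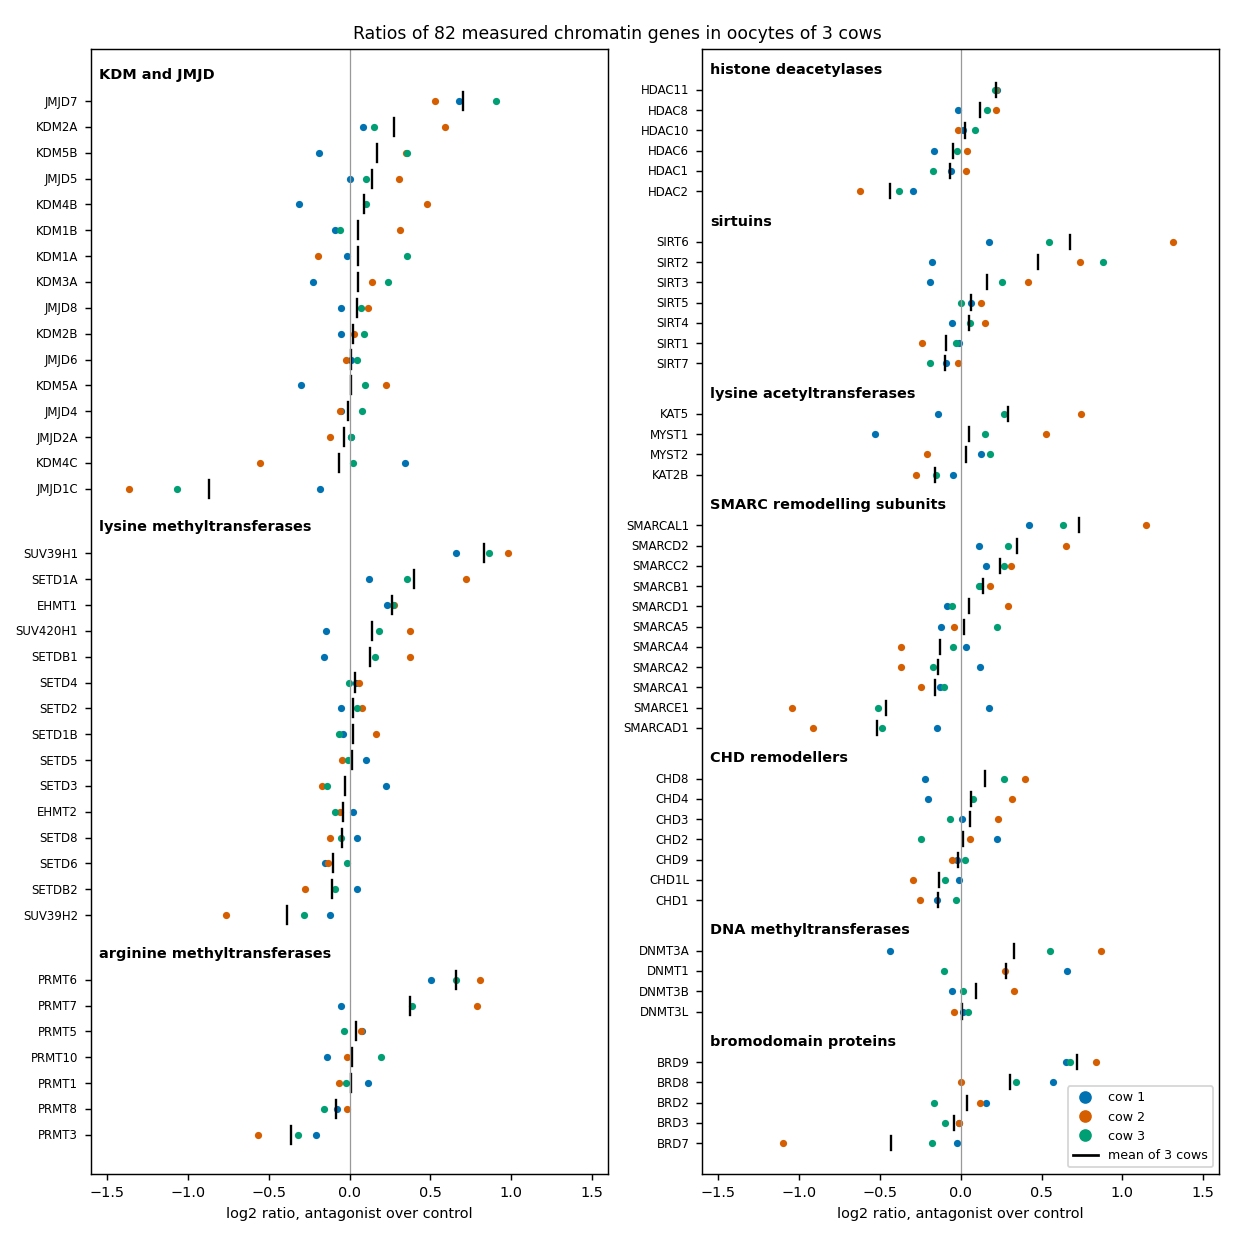
Log2 ratios of antagonist over control (horizontal axis) for each of the 82 measured chromatin genes, grouped by family and ordered by mean within it. Dots are the 3 cows (both dye orientations averaged) and black bars their mean. Most means lie close to 0. The dots of cow 2 lie farthest from it for several genes with a wide spread, such as SIRT6, BRD7 and JMJD1C, but not for SIRT2 or MYST1.

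Among the lysine methyltransferases, SUV39H1, which methylates histone H3 in heterochromatin, had the highest ratio. Its normalised log2 intensity in the control oocytes of cows 1, 2 and 3 was 8.78, 8.28 and 8.55, and in the antagonist oocytes it was 9.44, 9.25 and 9.41. Every antagonist value was above every control value, though levels of different cows, here and below, also carry the brightness of their arrays. The ratios were thus 0.66, 0.98 and 0.86, with a mean of 0.83 ± 0.16 (SD, n = 3), 1.78-fold (limma, unadjusted p = 0.00089, adjusted p = 0.283). Without any one cow the mean lay between 0.76 and 0.92. Its relative SUV39H2, which makes the same modification, had ratios of -0.12, -0.77 and -0.28 in cows 1, 2 and 3 on its brightest probe, below 0 in every cow, and a second, dimmer probe gave 0.02.

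EHMT1, partner of EHMT2 in the methylation of histone H3 in euchromatin, had nearly equal ratios in the cows, 0.23, 0.28 and 0.27, with a mean of 0.26 ± 0.02 (limma, unadjusted p = 0.0040, adjusted p = 0.283). The dye orientations differed: the ratios were 0.40, 0.52 and 0.41 with control in Cy5 and 0.06, 0.04 and 0.13 with antagonist in Cy5. With antagonist in Cy5 only, the unadjusted p was 0.22 (limma). EHMT2 itself had ratios of 0.02, -0.06 and -0.09, which straddle 0. SETD1A, the catalytic subunit of a promoter-marking COMPASS complex, had 0.12, 0.72 and 0.36, and cow 2 held the highest value. Its mean was 0.40 ± 0.30 (limma, unadjusted p = 0.050, adjusted p = 0.391), and the unadjusted p was 0.15 without cow 3 and 0.088 without cow 2, where the mean was 0.24. SETDB1, which silences endogenous retroviruses through histone methylation, had -0.16, 0.37 and 0.16, with no common sign. Of the 15 lysine methyltransferases 3 were higher and 0 were lower at the unadjusted threshold, against 8.57% and 6.57% of all genes, and their median ratio was 0.02.

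Among the arginine methyltransferases, PRMT6, which methylates histone H3 at an arginine of its tail, stood highest. Control intensities were 7.57, 7.33 and 7.40 and antagonist intensities 8.07, 8.14 and 8.06 in cows 1, 2 and 3, without overlap. The ratios were 0.50, 0.81 and 0.66, with a mean of 0.66 ± 0.15, 1.58-fold (limma, unadjusted p = 0.0017, adjusted p = 0.283). This probe was above the negative controls in 6 antagonist readings and 4 control readings, so part of its control level is set by the background.

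PRMT3, a cytoplasmic enzyme that methylates a ribosomal protein, lay on the other side, with ratios of -0.21, -0.56 and -0.32 and a mean of -0.36 ± 0.18 (limma, unadjusted p = 0.019, adjusted p = 0.319). It was below 0 in every cow, but the control and antagonist intensities of the 3 cows overlapped, and without cow 3 the unadjusted p was 0.079. PRMT5, the main enzyme of symmetric arginine methylation, had 0.08, 0.07 and -0.03. Of the 7 genes of this family 1 was higher and 1 was lower.

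The KDM and JMJD genes held the widest difference in either direction. JMJD1C, a JmjC-domain protein related to the KDM3 demethylases, had control intensities of 10.78, 10.70 and 10.70 in cows 1, 2 and 3, a narrow band. The antagonist intensities were 10.59, 9.34 and 9.64. All 3 lay below the controls, but cow 1 by far less than the other cows. The ratios of -0.18, -1.36 and -1.06 gave a mean of -0.87 ± 0.61, or 1.83-fold lower (limma, unadjusted p = 0.038, adjusted p = 0.368). Without cows 1, 2 and 3 in turn the mean was -1.21, -0.62 and -0.77, and the unadjusted p was 0.0013, 0.12 and 0.16.

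JMJD7, a JmjC hydroxylase that acts on lysine rather than removing methyl groups, had ratios of 0.67, 0.53 and 0.91, with a mean of 0.70 ± 0.19 (limma, unadjusted p = 0.0025, adjusted p = 0.283). Control intensities were 8.12, 7.68 and 7.58 and antagonist intensities 8.79, 8.21 and 8.49, with no overlap. A dimmer probe of the gene gave a mean ratio of 0.05, so the value rests on 1 of 2 probes.

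The other named histone demethylases had no common sign in the cows. KDM1B, needed in mouse oocytes for maternal imprints, had ratios of -0.09, 0.31 and -0.06. KDM1A, which removes methyl groups from histone H3, had -0.01, -0.19 and 0.36. KDM5B, a demethylase of active promoters, had -0.19, 0.35 and 0.35, with cow 1 apart in sign. Of the 16 KDM and JMJD genes JMJD7 was higher and JMJD1C was lower at the unadjusted threshold, and the median ratio was 0.05.

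**Figure D2:**
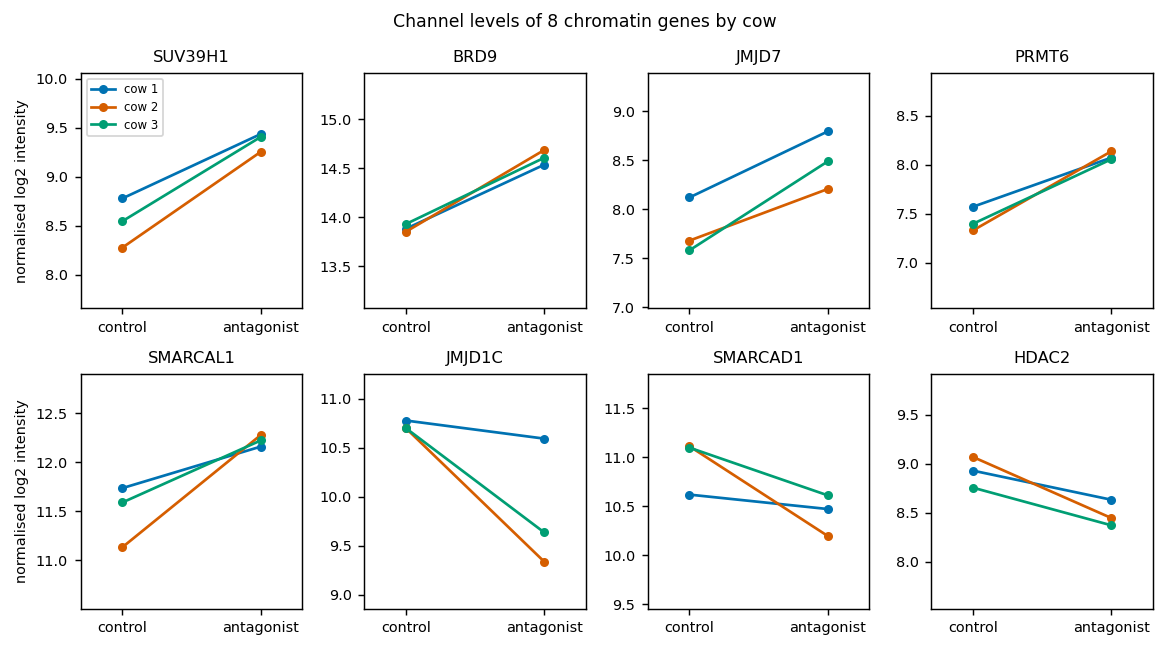
Normalised log2 intensity (vertical axis, all panels spanning the same range) in control and antagonist oocytes for 8 chromatin genes, with 1 line per cow and both arrays of a cow averaged. Intensities were normalised within arrays only. Antagonist values lie above all control values for SUV39H1, BRD9, JMJD7, PRMT6 and SMARCAL1 and below them for JMJD1C, SMARCAD1 and HDAC2, and the line of cow 1 is the flattest for JMJD1C.

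Among the deacetylases HDAC2 was the one with the lowest ratio. HDAC2, a deacetylase of the Sin3, NuRD and CoREST complexes and the main nuclear deacetylase of mouse oocytes, had control intensities of 8.93, 9.07 and 8.76 and antagonist intensities of 8.63, 8.45 and 8.37, lower in each cow and without overlap. The ratios were -0.30, -0.62 and -0.38, with a mean of -0.43 ± 0.17, or 1.35-fold lower (limma, unadjusted p = 0.0087, adjusted p = 0.288). HDAC2 had ratios of -0.44, -0.99 and -0.67 with control in Cy5 and -0.15, -0.26 and -0.10 with antagonist in Cy5. On the slide shared by 4 arrays its unadjusted p was 0.093 (limma). Its paralog HDAC1 had -0.06, 0.04 and -0.17. HDAC3 was not bright enough to be compared. HDAC11, named after its values were seen, had the ratios that lay closest together of all 82, 0.22, 0.22 and 0.21, with a mean of 0.22 ± 0.01 (limma, unadjusted p = 0.0065, adjusted p = 0.286), although its intensities, which differed in level between cows, overlapped between groups. Without cow 3 its unadjusted p was 0.058. The 6 deacetylases had a median of -0.01.

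SIRT6, a chromatin-bound deacetylase of telomeres and repair, was the sirtuin with the highest ratio. Its values in cows 1, 2 and 3 were 0.18, 1.31 and 0.55, above 0 on all 6 arrays, with a mean of 0.68 ± 0.58 (limma, unadjusted p = 0.064, adjusted p = 0.417). Both other probes of SIRT6 gave ratios of 0.01 and 0.08. SIRT1, a nuclear deacetylase, had -0.01, -0.24 and -0.03. None of the 7 sirtuins and none of the 4 acetyltransferases tested reached the unadjusted threshold. KAT5, the acetyltransferase of the NuA4 complex, had -0.14, 0.74 and 0.27, with cow 1 again apart in sign.

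The bromodomain genes were led by BRD9, a subunit of the non-canonical BAF remodelling complex. Control intensities of 13.88, 13.85 and 13.93 in cows 1, 2 and 3 faced antagonist intensities of 14.53, 14.68 and 14.61, without overlap. The ratios were 0.65, 0.83 and 0.68, with a mean of 0.72 ± 0.10, 1.65-fold (limma, unadjusted p = 0.00045, adjusted p = 0.283), the smallest p among the 82 genes. On single arrays the ratio ran from 0.34 to 1.12, higher where antagonist was in Cy5. The other bromodomain genes of 5 measured had mixed values, from -0.43 for BRD7 of the PBAF complex to 0.31 for BRD8 of the NuA4 complex, and none of them reached the threshold.

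SMARC genes held 5 of the 15 genes at an unadjusted p under 0.05, 3 higher and 2 lower, out of 11 measured, and their median was 0.02. That is 45.5% of them, against 15.1% of all genes, and with so few genes and no test of the family nothing further is read from it. SMARCAL1, which rewinds DNA at stalled replication forks, had ratios of 0.42, 1.15 and 0.63, with a mean of 0.73 ± 0.37, 1.66-fold (limma, unadjusted p = 0.015, adjusted p = 0.307). Its control intensities were 11.74, 11.13 and 11.59 and its antagonist intensities 12.16, 12.28 and 12.22, so that the controls spread and the antagonist values did not. Without cow 3 the unadjusted p was 0.064. SMARCAD1, a remodeller of DNA end resection and silent chromatin, had -0.15, -0.92 and -0.49, with a mean of -0.52 ± 0.39 (limma, unadjusted p = 0.046, adjusted p = 0.385), and its p passed 0.05 without cow 2, at 0.086 and with a mean of -0.32, and without cow 3, at 0.15.

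The core BAF subunits SMARCC2 and SMARCB1 had smaller ratios. This did not hold for SMARCD2 and SMARCE1, with means of 0.35 and -0.46, neither at the unadjusted threshold. SMARCC2, a scaffold subunit, had 0.16, 0.31 and 0.27, with a mean of 0.25 ± 0.08 (limma, unadjusted p = 0.012, adjusted p = 0.295; the unadjusted p was 0.051 without cow 2 and 0.083 without cow 3). SMARCB1, another core subunit, had 0.12, 0.18 and 0.11, with a mean of 0.14 ± 0.04 (limma, unadjusted p = 0.034, adjusted p = 0.354). In the ATPase genes the cows did not share a sign for SMARCA4, at 0.03, -0.37 and -0.05, nor for the ISWI motor SMARCA5, at -0.12, -0.04 and 0.23. The other ISWI motor, SMARCA1, was below 0 in each cow, at -0.13, -0.25 and -0.10, with a mean of -0.16 ± 0.08 (limma, unadjusted p = 0.041, adjusted p = 0.375). Leaving out any one cow ended the unadjusted call of SMARCA1 and of SMARCB1. The SMARCA1 probe was above the negative controls in 3 of 6 antagonist and 4 of 6 control readings and the SMARCB1 probe in 6 and 4, so both values lie partly near the background.

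CHD genes had means near 0: the 7 means ran from -0.14 for CHD1 to 0.15 for CHD8, and no gene reached the unadjusted threshold. CHD4, the motor of the NuRD complex, had -0.20, 0.32 and 0.07 in cows 1, 2 and 3. The ratios of the DNA methyltransferases varied from cow to cow. DNMT1, which copies methylation after replication, had 0.66, 0.27 and -0.10. DNMT3A, which with DNMT3L sets maternal imprints in mouse oocytes, had -0.43, 0.87 and 0.55. DNMT3B, the other de novo enzyme, had -0.06, 0.33 and 0.02, and no gene of the 4 had the same sign in 3 cows.

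**Figure D3:**
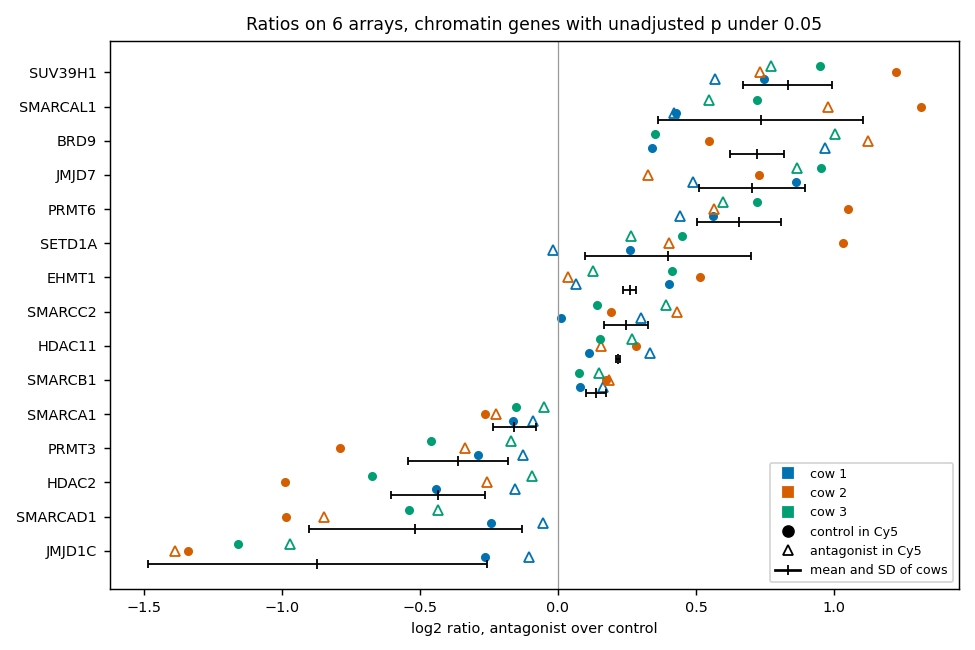
Log2 ratios of antagonist over control (horizontal axis) on each of the 6 arrays for the 15 chromatin genes at an unadjusted p under 0.05, none of which passed correction. Filled circles are arrays with control in Cy5, open triangles those with antagonist in Cy5, colours are cows, and bars are the mean ± SD of 3 cows. For 14 of the 15 genes all arrays lie on the same side of 0, the exception being SETD1A with 1 array at -0.02.

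The count of genes with one sign in all cows was close to that of other genes. Ratios were above 0 in 3 cows for 15 chromatin genes and below 0 in 3 cows for 15, or 18.3% each, against 20.7% and 17.1% of all genes. On all 6 arrays 10 genes were above 0 and 7 below, where 8.7% and 6.07% of all genes were. Intensities were normalised within arrays only, so overlap between cows also depends on array brightness. The intensities of the 3 cows did not overlap between groups for 12 genes, 14.6% of the 82 against 13% of all genes. In 9 of these the antagonist was higher, namely SUV39H1, EHMT1, PRMT6, JMJD7, SIRT6, BRD8, BRD9, SMARCAL1 and SMARCD2, and in 3 it was lower, namely JMJD1C, HDAC2 and SMARCAD1.

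Cows 2 and 3 resembled each other and cow 1 stood apart. The sign of the ratio was shared by cows 2 and 3 for 59 of the 82 genes, by cows 1 and 2 for 42 and by cows 1 and 3 for 41. In 29 of the 59 genes cow 1 had the opposite sign. Across the 82 genes, which are not independent replicates, Pearson's r between cows 2 and 3 was 0.82, against 0.80 over all genes. It was 0.21 between cows 1 and 2 and 0.34 between cows 1 and 3, against 0.21 and 0.29 over all genes. The points share the arrays' dyes and slides. Cow 1 also had the least agreement between its own 2 arrays. These correlated at r = 0.24 over the 82 genes, against 0.65 in cow 2 and 0.39 in cow 3. How far this lowered the correlations and sign agreement with cow 1 was not tested. Ratios also varied most in cow 2, with an SD over genes of 0.48 against 0.23 in cow 1 and 0.31 in cow 3. Over all genes the SDs in cows 1, 2 and 3 were 0.23, 0.48 and 0.31. The pattern was thus not particular to the chromatin genes. Among the 82, 18 genes passed 1.5-fold in cow 2 against 4 in cow 1 and 7 in cow 3.

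**Figure D4:**
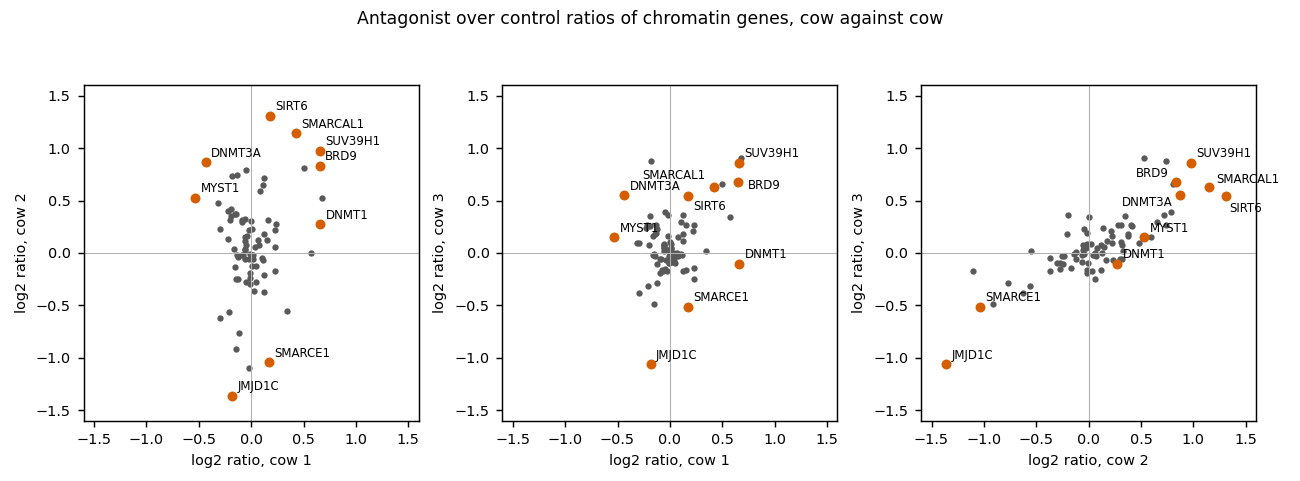
Log2 ratios of antagonist over control of the 82 chromatin genes, 1 dot per gene, for each pair of cows, with some genes marked in orange. Cows 2 and 3 line up along the diagonal (r = 0.82), while the panels with cow 1 show a cloud around 0 with DNMT3A and SMARCE1 on opposite sides in cow 1 and the other cows.

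The difference between cows could be set against the error of the dye exchange. When the 6 arrays were fitted singly, with 1 ratio per cow and 1 dye effect shared by all, the ratio differed between cows at an adjusted p under 0.05 (limma's F-test) for 47 chromatin genes, or 57.3%, against 54.5% of all genes. This F-test uses 1 RNA pair per cow, so it compares those RNA pools and not animals in general. The widest ranges over cows belonged to DNMT3A, SMARCE1 and JMJD1C. SMARCE1, a DNA-binding BAF subunit, had 0.17, -1.04 and -0.51 in cows 1, 2 and 3, with control intensities of 12.66, 12.79 and 12.62 and antagonist intensities of 12.83, 11.75 and 12.10. DNMT3A had control intensities of 11.42, 11.48 and 11.36 and antagonist intensities of 10.99, 12.35 and 11.91. In both genes the controls of the 3 cows lay close together and the antagonist values did not.

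The dye term was past an adjusted p of 0.05 (limma) for 59 of the 82 chromatin genes, against 64.6% of all genes. Its widest value among the genes' brightest probes was that of KDM4B, a demethylase of heterochromatin marks named here for this value. On the arrays with control in Cy5 its ratio was 0.34, 1.11 and 0.62 in cows 1, 2 and 3, and on those with antagonist in Cy5 it was -0.97, -0.15 and -0.42. The sign thus followed the dye in every cow, and the mean of both orientations was 0.09. A dimmer probe of KDM4B, above the negative controls in all 12 readings, had ratios of 0.16, 0.51 and 0.65 in cows 1, 2 and 3, above 0 on all 6 arrays, with a mean of 0.44 ± 0.25 (limma, unadjusted p = 0.024, adjusted p = 0.329) and no dye term at the threshold (adjusted p = 0.206). Over the 82 genes arrays of different cows with the same orientation correlated at r from 0.30 to 0.88, and the 2 arrays of one cow at 0.24 to 0.65. Orientation was partly confounded with slide, because all arrays with antagonist in Cy5 lay on the slide that also held 1 with control in Cy5.

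Probes of the same gene did not always give the same value. Of 27 genes with several tested probes, 12 had probes of opposite sign, and 4 had probes more than 0.5 apart, the median range being 0.13. Some of the 12 only straddled 0, such as SETD4 at -0.01 and 0.03 and KDM1A at -0.04 and 0.05. The share over all genes with several probes is not given here, so these counts have no background. The 3 widest ranges were those of SMARCE1, whose probes gave -0.46, 0.34 and -0.04, of SIRT6, from 0.01 to 0.68, and of JMJD7, at 0.05 and 0.70. With control in Cy5 the 0.34 probe of SMARCE1 had ratios of 0.89, 1.80 and 1.24 in cows 1, 2 and 3. With antagonist in Cy5 they were -0.93, -0.29 and -0.64, so the sign followed the dye in every cow. The -0.04 probe was above the negative controls in only 3 antagonist and 3 control readings. For DNMT3A the probes gave 0.33, 0.08 and -0.22. Of the 37 probes that were not their gene's brightest, 15 were above the negative controls in all 12 readings, and the ratio farthest from 0 among the 37 was the 0.44 of KDM4B. What part of each transcript a probe covers is not known here, so isoforms and failing probes cannot be told apart.

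**Figure D5:**
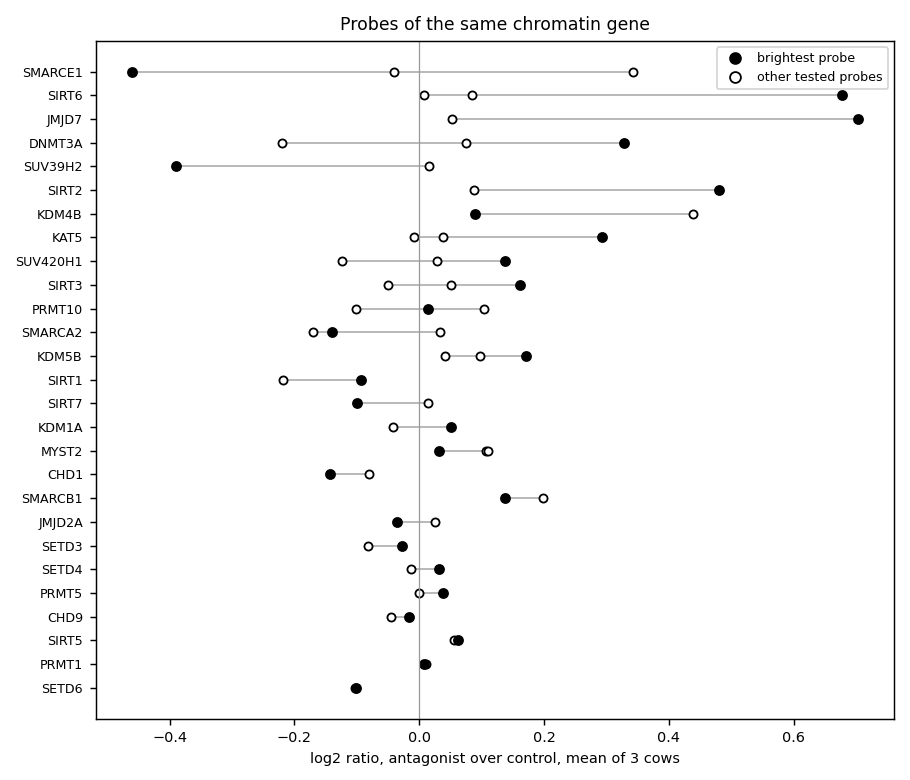
Mean log2 ratio of antagonist over control over 3 cows (horizontal axis) for every tested probe of the 27 chromatin genes with several, ordered by range. Filled circles are the brightest probe, which stands for the gene elsewhere, and open circles the others. Probes of 12 genes fall on both sides of 0, and SMARCE1, SIRT6 and JMJD7 have the widest ranges.

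Partners of these genes were listed as complexes with names outside the prefixes, 162 genes tested in 8 lists. At an unadjusted p under 0.05, 16 were higher and 9 were lower, and the median was -0.01. These shares of 9.88% and 5.56% were near the 8.57% and 6.57% of all genes. MBD1, which binds methylated CpG sites, had the smallest p, with ratios of 1.39, 1.44 and 1.42 and a mean of 1.42 ± 0.03, 2.67-fold (limma, adjusted p = 0.283). CBX8, a Polycomb subunit that reads histone methylation, had 0.64, 1.69 and 1.07, a mean of 1.13 ± 0.53 (limma, adjusted p = 0.293). Of the 11 SWI/SNF subunits outside the SMARC genes 10 had means below 0, with a median of -0.05 over the 11. That left 9.09% above 0, against 52% of all genes. The cows did not share this: only 1 of the 11 was below 0 in 3 cows. Medians in cows 1, 2 and 3 were 0.07, -0.10 and -0.04. ARID1B, a BAF targeting subunit, was the only one at the unadjusted threshold, with a mean of -0.18.

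In the other lists the gene of smallest p had a mean ratio of 0.30 for WDR5 of COMPASS, 0.42 for GPS2 of a corepressor complex, 0.50 for VPS72, a chaperone of histone H2A.Z, -0.33 for SUPT3H of the SAGA complex and 0.33 for the lamin gene LMNA. Each of these 5 had 1 sign in all cows, and none passed correction.

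The remaining 10 genes were not compared, having too few readings above the negative controls in both groups: CHD5, CHD7, SMARCC1, SMARCD3, PRMT2, HDAC3, HDAC5, KDM5C, KDM6A and SETD7. This says that their probes were dim here and not that the genes were silent. KAT2B passed the brightness rule through the control readings alone, 5 of 6, against 2 of 6 antagonist readings. Of the compared genes 63 were above the negative controls in all 12 readings, or 76.8%, against 70.4% of all genes. No probe used here carried the symbols JMJD3 or KAT2A. The authors' deposited log2 ratios gave the same sign for all 82 genes and differed from these values by at most 0.041.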

How the data were processed

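The authors deposited raw spot intensity per channel with local background, per the file headers, and a table of log2 ratios, deposited already as antagonist over control (slopes of 0.99 to 1.00 against the scanner values). No source used here says how spots were read from the images or how that table was normalised. Spot and background means were corrected by normexp (offset 50) and loess within arrays in limma 3.58.1 (R 4.3.3), with control spots at weight 0. No normalisation between arrays was applied, so the intensities of a cow carry the brightness of its arrays. The labels do not name a spot statistic: the mean was settled, to match earlier processing of the series, after 6 combinations had been run on these data with results in view. Tested probes, 32527 of 43794, were brighter than the 152 negative controls (mean plus 2 SD, by channel) in 3 or more of the 6 readings of a condition; 105 spots marked ignored were left out. Median spot intensity per channel was 191 to 277 against negative control means of 154 to 222, which limits the precision of dim probes.

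The dye-swapped arrays of each cow were averaged, and the 3 cows were tested against 0 (limma, two-sided, Benjamini-Hochberg over all probes). Each cow was its own control, per the labels, which pairs the values. After removal of group means, a cow's antagonist and control levels correlated at 0.34, 0.32 and 0.69. Both levels come from the same spots and arrays, so this correlation cannot show a pairing by cow. A gene is its brightest tested probe. Symbols are those of the platform annotation: 85 of the 92 are current in RefSeq, and PRMT10, MYST1, MYST2, JMJD2A, JMJD5, SETD8 and SUV420H1 are now PRMT9, KAT8, KAT7, KDM4A, KDM8, KMT5A and KMT5B. Slides were inferred from numbers in file names: 4 arrays share 1 of 3 slides.

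Genes were named by a rule (the largest ratios at unadjusted p under 0.05, a fixed set, and the 3 widest ranges over cows and over probes). Any other gene named was picked with its values in view. The members, classes and lists were chosen with earlier results of these data known, so no list was tested. Tests were run on simulated data under a wide and a narrow noise model, after a first model had recovered few changed probes. The narrow one was milder than the real spread, and neither gives the power of these data.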

Additional observations from a re-analysis of the deposited data

Results flagged for a closer look

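The ratio differed between cows for 47 of the 82 chromatin genes at an adjusted p under 0.05 (limma's F-test on 6 arrays, 54.5% among all genes). DNMT3A and SMARCE1 had opposite signs in cow 1 and in the other cows. The dye term was past the same threshold for 59 of the 82 genes, so that the arrays with antagonist in Cy5 and those with control in Cy5 differed, most for KDM4B. Both counts depended on how the spots were summarised, being 8 and 15 with spot medians.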

How the results depend on the processing

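The direction of all 15 genes at an unadjusted p under 0.05 held wherever 23 alternatives gave a value, and 290 of 342 gene values kept that p. Of the alternatives, 5 were spot statistics chosen after seeing the data. Much of the agreement in direction was fixed in advance. The dim-probe filters, the replicate block by cow and the fit without a block left these ratios unchanged by design. All 15 genes had 1 sign in 3 cows, so leaving out a cow could not reverse them. For the 14 with 1 sign on 6 arrays, neither could using 1 dye orientation or the shared slide. Whether any gene passed correction varied with the error model, the spot statistic and the use of 1 dye orientation alone. With a replicate block by cow (arrays fitted singly, dye in the model), 848 probes and 4 chromatin genes (SUV39H1, BRD9, JMJD7 and PRMT6) passed; with the slide as block 1346 probes and 6 of these genes passed, with 6872 probes at the unadjusted threshold. These fits treat arrays as units (correlation 0.77 within cows and 0.09 within slides). With no replicate block, 292 probes and 3 genes passed, and 3 genes were lower at the unadjusted threshold. With spot medians for foreground and background 361 probes and 3 genes (SUV39H1, JMJD7 and PRMT6) passed, 8 genes differed between cows and 15 had a dye term; the other 4 spot statistics passed 0 probes. On arrays with antagonist in Cy5 only, 186 probes and 1 gene passed, with 9401 probes and 9 lower genes at the unadjusted threshold; with control in Cy5 only these were 109 probes passed, 10223 probes, 21 higher and 13 lower genes and a median of 0.11. On the shared slide 2 genes were lower. Leaving out each cow gave 1591 to 7408 probes, 5 to 20 higher and 1 to 7 lower genes at the unadjusted threshold. The cause of these shifts was not tested. Aquantile leaves ratios as they are by construction. Array number and the signal over background of dim probes limit all values.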
